A study of Arabidopsis thaliana with 6 samples.

Results

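Chloroplasts keep a small genome of their own, and most of its protein-coding genes serve photosynthesis. The set described here holds the genes with a plastid locus tag (ArthCp) whose symbol starts with psa, psb, pet, atp or ndh, together with rbcL, each read by a probe set that the platform annotation assigns to 1 gene. Of the 44 plastid genes that meet this rule by symbol in RefSeq (TAIR10.1), 43 were measured, out of 13355 genes tested on the array. The missing one was ndhB. By complex, the 43 genes comprised 5 of photosystem I (psa), 15 of photosystem II (psb), 6 of cytochrome b6f (pet), 6 of the ATP synthase (atp), 10 of the NADH dehydrogenase-like NDH complex (ndh) and the gene of the large Rubisco subunit (rbcL).

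RNA of Arabidopsis thaliana seedlings carrying the mutant alleles bin4-1 or bin4-2 was compared with that of wild type (WT) on 6 Affymetrix arrays, 2 for each genotype. BIN4 belongs to plant topoisomerase VI, an enzyme that untangles DNA and on which endoreduplication depends. The sources used here give no seedling age, growth conditions or nature of the mutations, and no statement that the 2 arrays of a genotype came from separate cultures. The spread behind every p-value is thus that among 6 arrays and may be technical.

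Photosystem II splits water and photosystem I reduces ferredoxin. Cytochrome b6f passes electrons between them, the ATP synthase uses the resulting proton gradient, and the NDH complex returns electrons from ferredoxin to the chain. Each of these complexes combines plastid-encoded core subunits with nuclear-encoded ones. Plastid genes are transcribed by a bacterial-type RNA polymerase, whose core is itself plastid-encoded (rpo genes), and by a nuclear-encoded phage-type polymerase, and many are co-transcribed in groups. Most plastid transcripts lack a stable poly(A) tail, and the labels do not state which primer was used for labelling.

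Values are log2 intensities, in which a difference of 1 is a doubling, and changes are mutant minus WT with limma's standard error (SE). BIN4 itself (AT5G24630) was dim, with 3.30 and 3.35 in bin4-1, 2.92 and 3.05 in bin4-2, and 3.78 and 3.93 in WT. All mutant arrays were below both WT arrays. BIN4 changed by -0.53 ± 0.11 (SE, limma adjusted p = 0.0015) in bin4-1, and in bin4-2 by -0.87 ± 0.11 (adjusted p = 3.18e-05). Arrays of 1 genotype correlated at 0.995 to 0.997 over probe sets, and mutant with WT arrays at 0.905 to 0.916. Changes were widespread, since the mean of both alleles was lower than WT for 28.8% of all genes and higher for 23.2%, at the adjusted p of 0.05 used throughout. Of the cell type markers listed, the root expansins EXPA18 and EXPA7 (2 of 6 root markers measured) changed by -1.27 ± 0.10 and -0.39 ± 0.10 in that mean (SE, adjusted p = 5.77e-07 and 0.00684), the trichome regulator TRY (1 of 3) by -0.96 ± 0.10 and the guard cell regulator FAMA (1 of 3) by -0.01 ± 0.10. Vascular and senescence markers had 0 measured members. The part of a shifted cell makeup in the results below was not tested, and fewer green cells and less plastid RNA per cell cannot be told apart in RNA of whole seedlings.

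Most of the plastid photosynthesis and NDH transcripts were lower in both mutants. In bin4-1, 34 of the 43 genes fell (limma, Benjamini-Hochberg adjusted over all genes), against 25.0% of all genes. The number that rose was 0, against 22.0% of all genes. It was also 0 at an unadjusted p under 0.05, where 3178 of all 13355 genes rose. In bin4-2, 31 fell, against 26.6% of all genes, and 1 (psbJ) rose, against 21.1%. In the mean of both alleles, 36 fell and 0 rose, against the 28.8% and 23.2% of all genes above. At an unadjusted p under 0.05, 37 were lower and 0 higher in that mean. Of all 13355 genes, 7647 had such a p in that mean, 3293 of them higher. The median log2 change over the 43 genes was -0.63 in bin4-1 and -0.62 in bin4-2, where the median over all genes was -0.08 and -0.09. All 4 mutant arrays lay below both WT arrays for 35 of the 43 genes, against 35.8% of all genes.

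**Figure D1:**
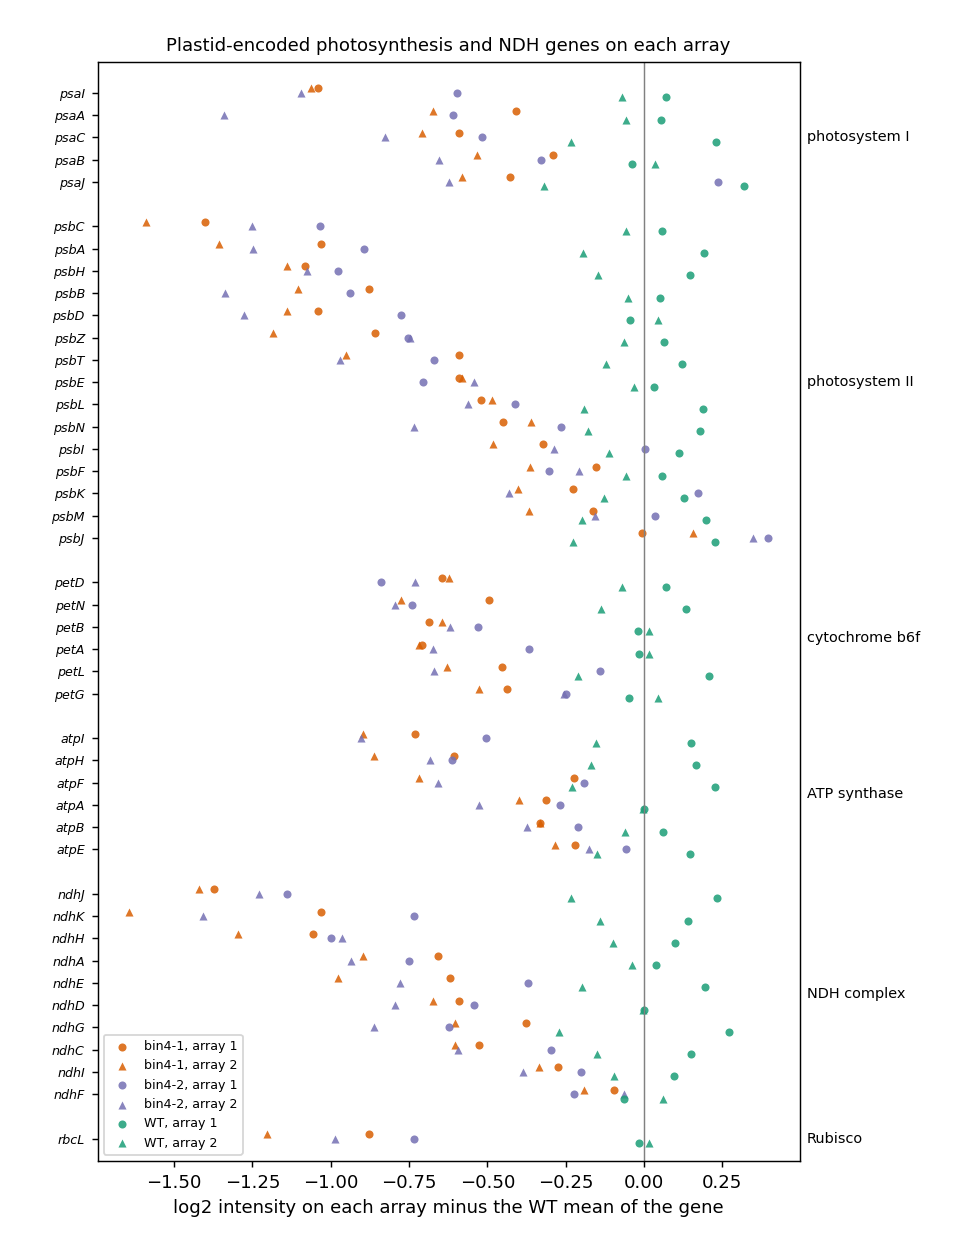
Log2 intensity of each of the 43 genes on each array minus the gene's WT mean (x axis, log2 units), grouped by complex on the y axis. Circles and triangles are arrays 1 and 2, in orange for bin4-1, purple for bin4-2 and green for WT; all 4 mutant arrays lie left of both WT arrays for 35 genes, and psbC and ndhJ lie far to the left while psbJ does not.

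Photosystem II had the widest range of changes. In the mean of both alleles 11 of its 15 genes fell, 0 rose, and the median change was -0.60, with a range of -1.32 (psbC) to 0.22 (psbJ). The genes of the reaction centre and inner antenna, psbA, psbB, psbC and psbD, all fell by more than 1. psbC encodes CP43, a chlorophyll-binding inner antenna protein. It had 7.66 and 7.47 in bin4-1, 8.03 and 7.81 in bin4-2, and 9.12 and 9.01 in WT. All mutant arrays were below both WT arrays, and the bin4-1 arrays were the lowest. The change was -1.50 ± 0.12 in bin4-1, 2.82-fold lower (SE, adjusted p = 7.17e-07), and -1.14 ± 0.12 in bin4-2, 2.21-fold lower (adjusted p = 7.36e-06).

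psbA encodes the D1 reaction centre protein, which is damaged by light and replaced continually. Its values were 8.22 and 7.90 in bin4-1, 8.36 and 8.01 in bin4-2, and 9.45 and 9.06 in WT. Array 1 of each genotype was the higher one, and the groups of mutant and WT arrays did not overlap. psbA was 2.19-fold lower in the mean of both alleles (log2 -1.13 ± 0.14, SE, adjusted p = 2.94e-05). psbB, for the antenna protein CP47, and psbD, for the D2 reaction centre protein, each changed by -1.06 (SE 0.12 and 0.13). The small-subunit gene psbH changed by -1.07 ± 0.10 and psbZ by -0.89 ± 0.11.

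Several genes of other small photosystem II subunits moved little. psbK had 9.38 and 9.20 in bin4-1, 9.78 and 9.18 in bin4-2, and 9.73 and 9.48 in WT. psbM had 9.85 and 9.64 in bin4-1, 10.05 and 9.85 in bin4-2, and 10.21 and 9.81 in WT. In both genes the mutant arrays overlapped the WT arrays. Their changes in the mean of both alleles, -0.22 ± 0.15 for psbK and -0.16 ± 0.12 for psbM, did not pass (SE, adjusted p = 0.243 and 0.295). psbK passed without bin4-2 replicate 1 (-0.37) and psbM without WT replicate 2 (-0.36). psbF, for a subunit of cytochrome b559, changed by -0.26 ± 0.10 and passed narrowly (adjusted p = 0.0442), while its partner psbE changed by -0.60 ± 0.09. psbF no longer passed without any one of WT replicate 1, WT replicate 2, bin4-1 replicate 2, bin4-2 replicate 1 or bin4-2 replicate 2.

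psbJ, another small subunit gene, was the one gene with a positive change in the mean of both alleles. It had 8.52 and 8.68 in bin4-1, 8.92 and 8.87 in bin4-2, and 8.75 and 8.29 in WT. Both bin4-2 arrays were above both WT arrays, and both bin4-1 arrays lay between them. In bin4-2 the rise was 0.37 ± 0.14 (SE, adjusted p = 0.0485), which was lost in 8 of 13 alternatives, including the removal of WT replicate 2, of either bin4-1 array or of either bin4-2 array. The change in bin4-1 was 0.08 ± 0.14 (adjusted p = 0.695).

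In photosystem I, 4 of 5 genes fell in the mean of both alleles, with a median change of -0.66. psaI, a small subunit gene, had 8.38 and 8.36 in bin4-1, 8.83 and 8.33 in bin4-2, and 9.49 and 9.35 in WT. All mutant arrays were below both WT arrays, and psaI was 1.93-fold lower in the mean of both alleles (log2 -0.95 ± 0.13, SE, adjusted p = 5.42e-05). psaA and psaB encode the paired proteins that hold the reaction centre chlorophylls. psaA had 7.65 and 7.39 in bin4-1, 7.45 and 6.72 in bin4-2, and 8.12 and 8.01 in WT, and array 2 of bin4-2 stood apart as the lowest. psaA changed by -0.54 ± 0.19 in bin4-1 (SE, adjusted p = 0.0374) and by -0.98 ± 0.19 in bin4-2 (adjusted p = 0.00124). The bin4-1 call was lost without WT replicate 1, WT replicate 2 or bin4-1 replicate 2. With an intensity trend in the variance prior psaA passed in neither allele (adjusted p = 0.209 in bin4-1 and 0.0545 in bin4-2) nor in their mean (adjusted p = 0.0675). psaB had 11.12 and 10.88 in bin4-1, 11.09 and 10.76 in bin4-2, and 11.38 and 11.45 in WT. The groups did not overlap, and psaB changed by -0.45 ± 0.11 in the mean of both alleles (adjusted p = 0.0055). psaC, for the iron-sulphur subunit that hands on electrons, changed by -0.66 ± 0.13. psaJ had 9.32 and 9.16 in bin4-1, 9.98 and 9.12 in bin4-2, and 10.06 and 9.42 in WT. Array 1 of bin4-2 lay between the WT arrays, and the change of -0.35 ± 0.22 did not pass (adjusted p = 0.2). Without WT replicate 2 or without bin4-2 replicate 1 it did, at -0.67 and -0.56.

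All 6 cytochrome b6f genes fell in the mean of both alleles, within the narrow range of -0.71 to -0.37. petD, for subunit IV, had 3.62 and 3.64 in bin4-1, 3.42 and 3.53 in bin4-2, and 4.33 and 4.19 in WT. Mutant and WT arrays were clearly apart, with a change of -0.71 ± 0.09 (SE, adjusted p = 3.83e-05). petD was dim, below the median of all genes on every array (4.31 to 4.37), which limits how far it could be seen to fall. The small-subunit gene petN had 5.27 and 4.99 in bin4-1, 5.03 and 4.97 in bin4-2, and 5.90 and 5.63 in WT, without overlap, and changed by -0.70 ± 0.11. petB (cytochrome b6) and petA (cytochrome f) each changed by -0.62 (SE 0.09 and 0.10). petL had 7.42 and 7.24 in bin4-1, 7.73 and 7.20 in bin4-2, and 8.08 and 7.66 in WT, so array 1 of bin4-2 overlapped WT. It fell by 0.47 (SE 0.15), and the call was lost without WT replicate 1, bin4-1 replicate 2 or bin4-2 replicate 2. petG had 4.06 and 3.97 in bin4-1, 4.25 and 4.24 in bin4-2, and 4.45 and 4.54 in WT, and changed by -0.37 ± 0.09 (adjusted p = 0.00423).

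The ATP synthase genes had the smallest median change of the multi-gene complexes, -0.41, with 5 of 6 lower in the mean of both alleles. Among the genes of the membrane part, atpI had 3.99 and 3.82 in bin4-1, 4.22 and 3.82 in bin4-2, and 4.87 and 4.57 in WT. atpH, for the rotor ring subunit, had 8.17 and 7.91 in bin4-1, 8.16 and 8.09 in bin4-2, and 8.94 and 8.61 in WT. Neither gene overlapped between mutant and WT arrays, and they changed by -0.76 ± 0.13 and -0.69 ± 0.12 (SE, adjusted p = 3.58e-04 and 3.22e-04). Of the catalytic head, atpB had 12.12 and 12.12 in bin4-1, 12.24 and 12.08 in bin4-2, and 12.51 and 12.39 in WT. atpE had 12.24 and 12.18 in bin4-1, 12.41 and 12.29 in bin4-2, and 12.61 and 12.31 in WT. atpB changed by -0.31 ± 0.09 (adjusted p = 0.0145), while atpE, whose mutant and WT arrays overlapped, changed by -0.18 ± 0.10 (adjusted p = 0.163). The atpB call was lost without WT replicate 1, and after quantile normalization, where the change was -0.18 (adjusted p = 0.101). atpE passed without WT replicate 2, at -0.33, and with an intensity trend (adjusted p = 0.0446). atpA, of the catalytic head, changed by -0.38 ± 0.10. atpF, of the membrane part, changed by -0.45 ± 0.17 (adjusted p = 0.0471), with overlapping arrays, and no longer passed without WT replicate 1, bin4-1 replicate 2 or bin4-2 replicate 2. The 7 genes with a mean log2 above 10, a limit set after the values were seen, had a median change of -0.38, against -0.69 for the other 36. They were atpA, atpB, atpE, ndhC, ndhI, petB and psaB, the highest array value of all probe sets was 13.3, and a part of signal saturation in this was not tested.

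Of the NDH complex, 9 of 10 genes fell in the mean of both alleles, with a median change of -0.67. The largest changes were in genes of the arm that protrudes from the membrane (ndhH to ndhK). ndhJ had 5.64 and 5.59 in bin4-1, 5.87 and 5.78 in bin4-2, and 7.24 and 6.78 in WT. ndhK had 5.34 and 4.72 in bin4-1, 5.64 and 4.96 in bin4-2, and 6.51 and 6.23 in WT. All mutant arrays were below both WT arrays for both genes, although array 2 of each mutant was much lower than array 1 for ndhK. In the mean of both alleles ndhJ was 2.44-fold lower (log2 -1.29 ± 0.12, SE, adjusted p = 2.69e-06), and ndhK changed by -1.20 ± 0.19 (adjusted p = 2.4e-04). ndhH changed by -1.08 ± 0.10. The fourth gene of that arm, ndhI, had 10.82 and 10.76 in bin4-1, 10.90 and 10.71 in bin4-2, and 11.19 and 11.00 in WT, and changed by only -0.30 ± 0.10 (adjusted p = 0.0241). The ndhI call was lost without WT replicate 1, bin4-1 replicate 2 or bin4-2 replicate 2. Among the membrane-arm genes, ndhA changed by -0.81, ndhE by -0.69, ndhD by -0.65, ndhG by -0.62 and ndhC by -0.51, all past the threshold, although ndhG no longer passed without WT replicate 1. ndhF had 2.45 and 2.35 in bin4-1, 2.32 and 2.48 in bin4-2, and 2.48 and 2.61 in WT. These values lie around the 5th percentile of the WT arrays (2.57 on each), so its change of -0.14 ± 0.09 (adjusted p = 0.228) says little about the transcript.

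rbcL encodes the large subunit of Rubisco, the carbon-fixing enzyme. It had 7.30 and 6.97 in bin4-1, 7.44 and 7.19 in bin4-2, and 8.16 and 8.19 in WT. The WT arrays were nearly equal, and all mutant arrays were below them. rbcL was 2.06-fold lower in bin4-1 (log2 -1.04 ± 0.13, SE, adjusted p = 3.86e-05) and 1.81-fold lower in bin4-2 (log2 -0.86 ± 0.13, adjusted p = 1.86e-04).

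The alleles were not told apart at any of the 43 genes. limma called 0 of them for bin4-2 against bin4-1, against 0.247% of all genes, while 4 of the 43 (9.30%) had an unadjusted p under 0.05, against 6.80% of all genes. Values were higher in bin4-2 than in bin4-1 for 29 of the 43 genes, against 46.8% of all genes, with a median difference of 0.09. With single arrays left out, that median ran from -0.05 (without bin4-2 replicate 1) to 0.18 (without bin4-2 replicate 2). The other plastid genes had a similar median difference of 0.10. The difference with the smallest adjusted p was that of psbC, 0.35 ± 0.12 (SE, adjusted p = 0.493), and with an intensity trend in the variance prior it passed (adjusted p = 0.0338). psaA differed by -0.44 ± 0.19 (adjusted p = 0.713). Calls against WT, for which both alleles share the same 2 arrays, differed between alleles for a few genes near the threshold. For petG the change was -0.25 ± 0.10 in bin4-2 (SE, adjusted p = 0.0626), and -0.48 ± 0.10 in bin4-1 (adjusted p = 0.00203). For psbI it was -0.14 ± 0.13 in bin4-2 (adjusted p = 0.396), and -0.40 ± 0.13 in bin4-1 (adjusted p = 0.0239). petL, ndhI, psbN and psbJ likewise passed in 1 allele alone, psbN and psbJ in bin4-2 and the others in bin4-1. The allele difference passed for none of these 6 genes, with adjusted p between 0.711 and 0.993. Of these calls against WT, only that of petG was kept when any single array was left out: psbI and petL lost theirs without WT replicate 1 or bin4-1 replicate 2, ndhI without WT replicate 1 or either bin4-1 array, and psbN without WT replicate 1 or bin4-2 replicate 2.

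Among genes that are transcribed together, some groups had a wide range of changes and others a narrow one. The psbD, psbC and psbZ group had changes of -1.32 to -0.89 in the mean of both alleles. The group of psbB, psbT, psbH, petB and petD ran from -1.07 (psbH) to -0.62 (petB), and all 5 genes fell. psbN, an assembly factor gene that lies between psbT and psbH in reverse orientation, changed by -0.45 ± 0.14 (SE, adjusted p = 0.0166), a call lost without WT replicate 1. In the group of psbE, psbF, psbL and psbJ the changes spanned 0.83, from -0.60 (psbE) to 0.22 (psbJ). The group of ndhC, ndhK and ndhJ spanned 0.78, from -1.29 (ndhJ) to -0.51 (ndhC), and so did that of ndhH, ndhA, ndhI, ndhG, ndhE, psaC and ndhD, from -1.08 (ndhH) to -0.30 (ndhI). psbK and psbI changed by -0.22 and -0.27, neither past the threshold. However, psbI passed after quantile normalization, with an intensity trend in the variance prior and with a filter at a mean log2 of 5. It also passed with the suffix of the array titles as a replicate block. The change of psbI was -0.38 without WT replicate 2 and -0.34 without bin4-2 replicate 1. The range was 0.11 for petL and petG, 0.13 for atpB and atpE, 0.31 for psaA and psaB, and 0.38 for atpI, atpH, atpF and atpA. Differences between genes of 1 group were not tested directly.

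**Figure D2:**
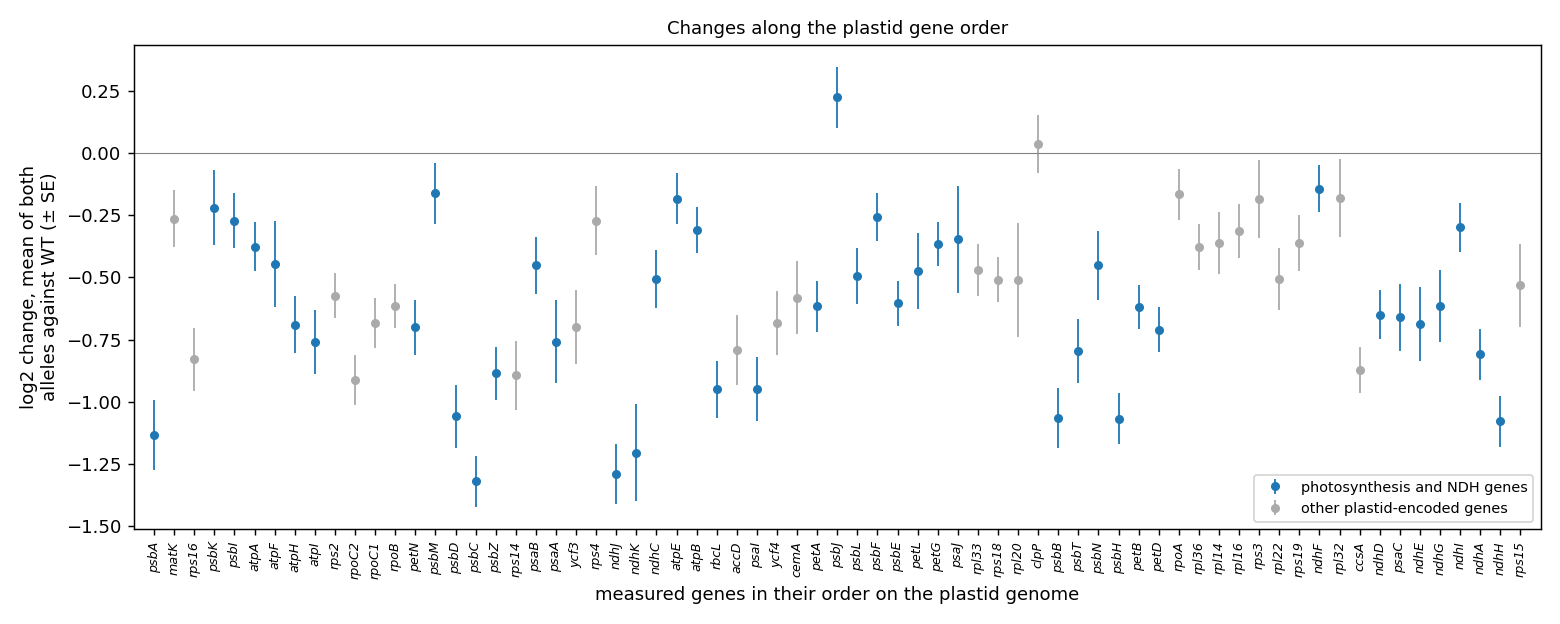
Log2 change of each measured plastid gene in the mean of both alleles against WT (y axis, ± SE from limma), with genes in their order on the plastid genome along the x axis. Photosynthesis and NDH genes are blue and the other plastid genes grey; neighbours such as psbD, psbC and psbZ are low together, while psbJ, at 0.22, stands above psbE, psbF and psbL.

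The rest of the plastid transcripts were lower too. Of 26 other measured plastid genes, 15 were for ribosomal proteins and 4 for the plastid RNA polymerase. In the mean of both alleles 19 of the 26 fell, against 28.8% of all genes, with a median change of -0.51. Of the 16 mitochondria-encoded genes measured, 0 fell and 6 rose in that mean in limma, against 28.8% and 23.2% of all genes. The counts were the same at an unadjusted p under 0.05, which 7647 of all 13355 genes had, 3293 of them higher. By allele, 6 rose in bin4-1, against 22.0% of all genes, and 3 in bin4-2, against 21.1%. The 16 genes had a median change of 0.18 in the mean of both alleles, with the largest, 0.76, in nad4L (respiratory complex I). These genes were dim, with a median of 3.68 to 3.93 on the mutant arrays and 3.61 and 3.70 on the WT arrays, below the median of all genes on every array (4.31 to 4.37), which limits how far they could be seen to fall. To see which photosynthesis and NDH genes departed from the other plastid genes, the median of those 26 genes was subtracted on each array and all genes were fitted again. This scaling moved the median change of all genes to 0.38, so that 10.1% of all genes were lower and 61.3% higher. Relative to the other plastid genes, 13 of the 43 were lower and 3 higher, and 27 did not pass, with a median of -0.15. The 26 other plastid genes departed from their own median too, with 5 lower and 2 higher in the same fit, from -0.45 (rpoC2) to 0.50 (clpP). Whether the shares of called genes differ between these sets was not tested. The fit gave every gene the same SE of 0.14, whatever the gene's own spread between arrays. Its adjusted p-values are thus not comparable with those of the unscaled fit.

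The 13 lower genes were 7 of photosystem II (psbA, psbB, psbC, psbD, psbH, psbT and psbZ), 4 of the NDH complex (ndhA, ndhH, ndhJ and ndhK), psaI and rbcL. psbC was lower by a further -0.85 (adjusted p = 5.87e-09), ndhJ by -0.82 and psbA by -0.67. On this scale psbC had -0.19 and -0.32 in bin4-1, -0.10 and -0.13 in bin4-2, and 0.66 and 0.67 in WT, so the WT arrays were nearly equal and well above the mutants. The 3 higher genes were psbJ (0.69), psbM (0.31) and ndhF (0.32). The value for ndhF is not read as a rise, since any probe set that stays near the bottom of the scale is raised when a median that is lower in the mutants is subtracted. A gene that falls less than that median is raised as well. Before scaling, psbM changed by -0.16 (limma adjusted p = 0.295) and psbJ by 0.22 (adjusted p = 0.149), neither past the threshold. After scaling, psbJ had 0.67 and 0.89 in bin4-1, 0.79 and 0.92 in bin4-2, and 0.29 and -0.04 in WT, with all mutant arrays above both WT arrays. ndhF lost its call without WT replicate 1, bin4-2 replicate 2 or either bin4-1 array, and psbM lost its call without WT replicate 2 or either bin4-1 array. Of the lower genes, ndhA lost its call without either WT array or bin4-1 replicate 2, psbT without WT replicate 1, bin4-1 replicate 2 or bin4-2 replicate 2, and psbZ without bin4-1 replicate 2. The count of higher genes was 1 without either bin4-1 array, and 2 without either WT array. 0 of the 12 cytochrome b6f and ATP synthase genes passed. At an unadjusted p under 0.05 there were 2, both of the ATP synthase, against 9884 of all 13355 genes. This count of 0 depended on the setting. atpE passed as higher in 5 of 13 alternatives, among them without bin4-2 replicate 1, and atpB after quantile normalization. atpI passed as lower without WT replicate 2, without bin4-2 replicate 1 and with the suffix of the array titles as a replicate block, and petD without bin4-2 replicate 2 and with that block. Against the median of the mitochondria-encoded genes in place of the plastid ones, 42 of the 43 were lower, with a median of -0.78, against 43.5% of all genes, whose median was -0.25.

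**Figure D3:**
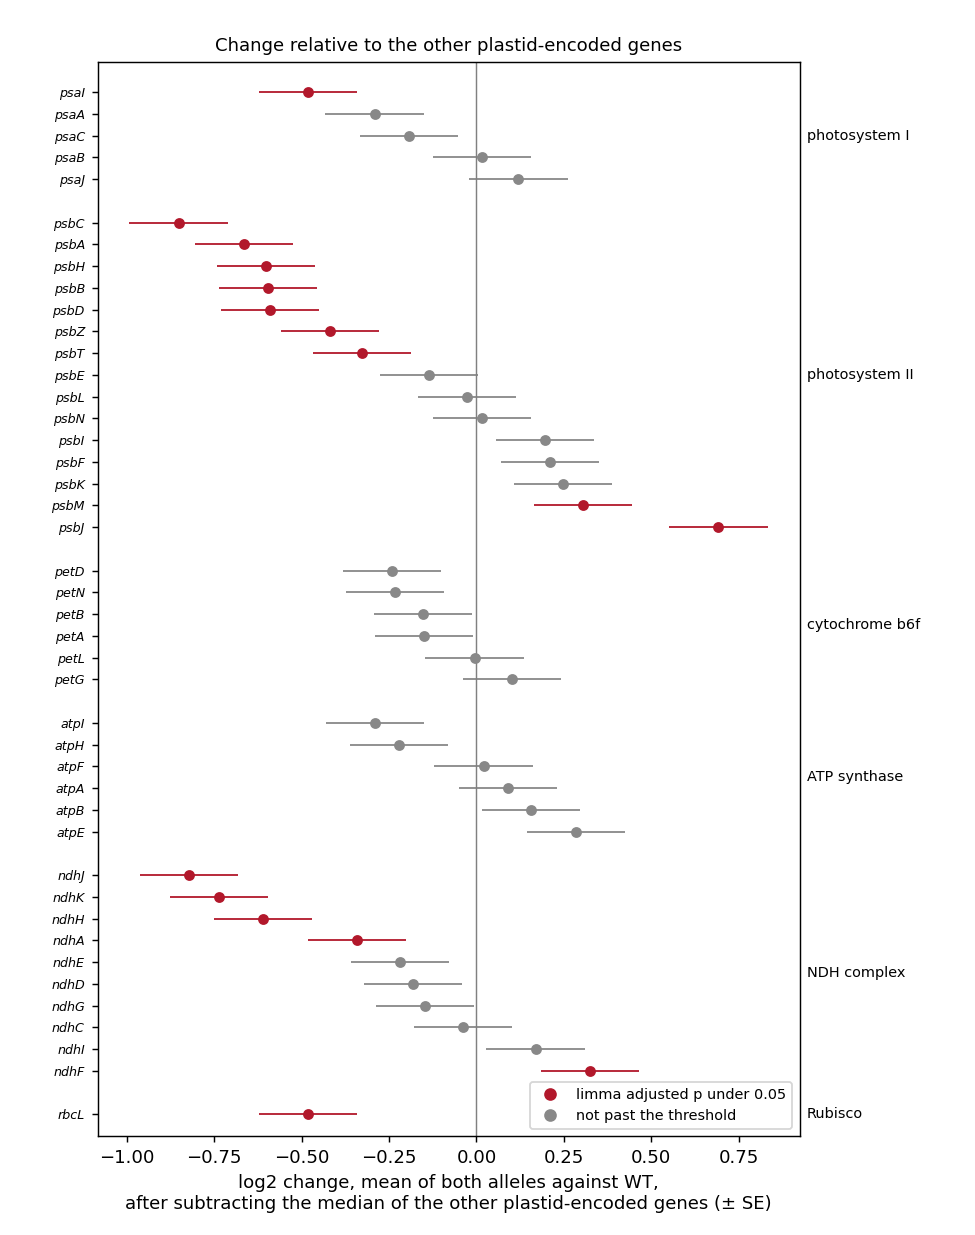
Log2 change in the mean of both alleles against WT after the median of the 26 other plastid genes was subtracted on each array (x axis, ± SE of 0.14), for the 43 genes grouped by complex. Red genes passed an adjusted p of 0.05 in limma; 13 lie to the left of 0, led by psbC at -0.85, and 3 to the right, led by psbJ at 0.69.

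The measured nuclear genes listed for the same complexes fell as well. Of 78 listed nuclear genes, 15 were measured. All 15 were lower in each allele, against 25.0% of all genes in bin4-1 and 26.6% in bin4-2. The median change of the 15 was -1.65 in the mean of both alleles. The list was chosen with earlier results of these arrays known. In the NDH complex, AT2G04039 (the NdhV subunit) changed by -3.52 ± 0.15 and NdhL by -2.32 ± 0.09 (SE), and the smallest change, in NdhS, was -1.42. LHCB4.2, for a photosystem II antenna protein, changed by -2.43 ± 0.09, PSBY by -1.73, and PSBW by the smallest amount, -1.11. In photosystem I, PSAN changed by -2.06 and PSAE-1 by -1.46. For cytochrome b6f, AT2G26500 (PetM) changed by -1.24. For Rubisco, 1 of 5 listed genes was measured, the activase RCA, which is not a subunit and changed by -2.01. The ATP synthase gamma genes changed by -1.65 ± 0.09 for ATPC1 and -0.28 ± 0.09 for ATPC2. ATPC2 was dim, with a mean of 4.48 over the arrays against 10.23 for ATPC1, which limits how far it could be seen to fall. The difference between these genes was not tested. Of the listed nuclear factors that process plastid transcripts, 2 of 7 were measured and both fell, AT5G42310 (CRP1) by 1.46 and CRR21 by 1.12. None of the 20 listed polymerase-associated proteins and sigma factors was measured.

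**Figure D4:**
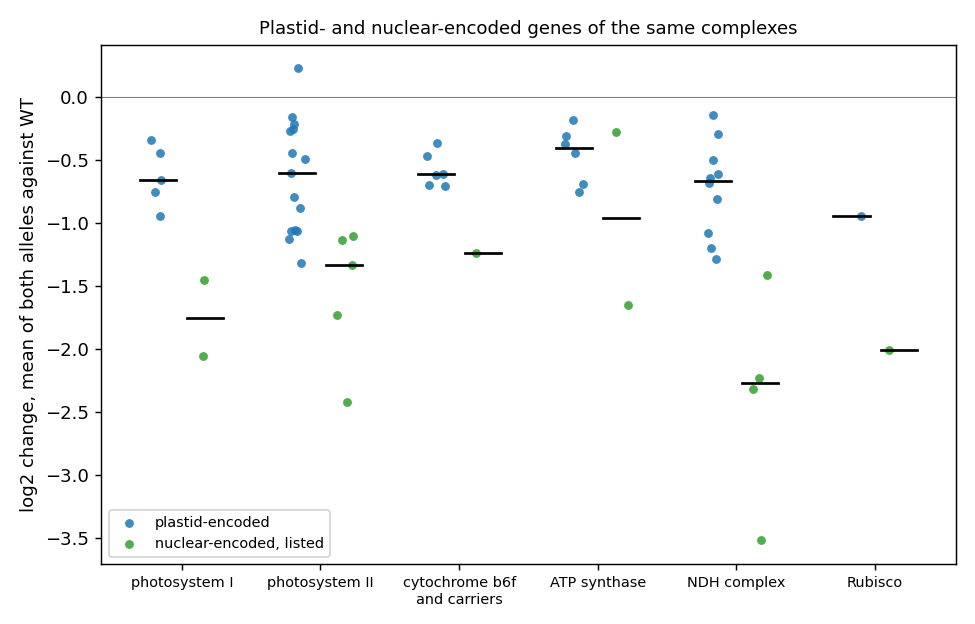
Log2 change in the mean of both alleles against WT (y axis) for single genes listed for each complex. Plastid-encoded genes are blue and listed nuclear-encoded genes green, with black bars at the medians. The nuclear gene under Rubisco is its activase RCA, which is not a subunit. Medians of the plastid genes lie between -0.95 (rbcL) and -0.41 (ATP synthase), and nuclear genes run down to -3.52 (NdhV).

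The arrays of 1 genotype differed in plastid signal. Array 1 here is the one whose title has no suffix and array 2 the one whose title ends in _1. Gaps were taken for each gene as array 1 minus array 2. The median gap of the 43 genes was 0.16 in bin4-1, 0.25 in bin4-2 and 0.22 in WT. Over all genes the median gap was -0.02, 0.00 and -0.02. Array 1 was higher for 37 genes in bin4-1, 37 in bin4-2 and 36 in WT, and for 28 of the 43 in all 3 genotypes, against 10.5% of all genes. The gap was widest for psaJ, at 0.86 in bin4-2 and 0.64 in WT, and for ndhK, at 0.61 in bin4-1. The other plastid genes had median gaps of 0.13, 0.26 and 0.17, and the mitochondria-encoded genes 0.06, 0.14 and -0.04, in bin4-1, bin4-2 and WT. Once the median of the other plastid genes was subtracted, the median gaps of the 43 genes were 0.10, 0.07 and 0.10.

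The change between mutants and WT was wider than this gap for most of the genes. Relative to each gene's WT mean, the median of the 43 genes lay at -0.59 and -0.67 on the bin4-1 arrays, -0.52 and -0.73 on the bin4-2 arrays, and 0.11 and -0.11 on the WT arrays. For 33 of the 43 genes the change in the mean of both alleles exceeded the widest gap between arrays of any 1 genotype, against 57.9% of all genes. The other 10 were atpE, atpF, ndhF, petL, psaJ, psbI, psbJ, psbK, psbM and psbN. The labels give no batch, scan time or extraction that would tie array 1 of one genotype to array 1 of another, so the suffix is not known to pair them. The suffix was also used as a replicate block, which takes out a gap common to the genotypes. With the block 37 genes fell in bin4-1, 34 in bin4-2 and 38 in the mean of both alleles. The share of all genes that fell in this fit is not given here. In that fit psbJ did not pass in bin4-2, atpF and petL fell in bin4-2, and psaJ fell in the mean of both alleles (adjusted p = 0.0495).

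**Figure D5:**
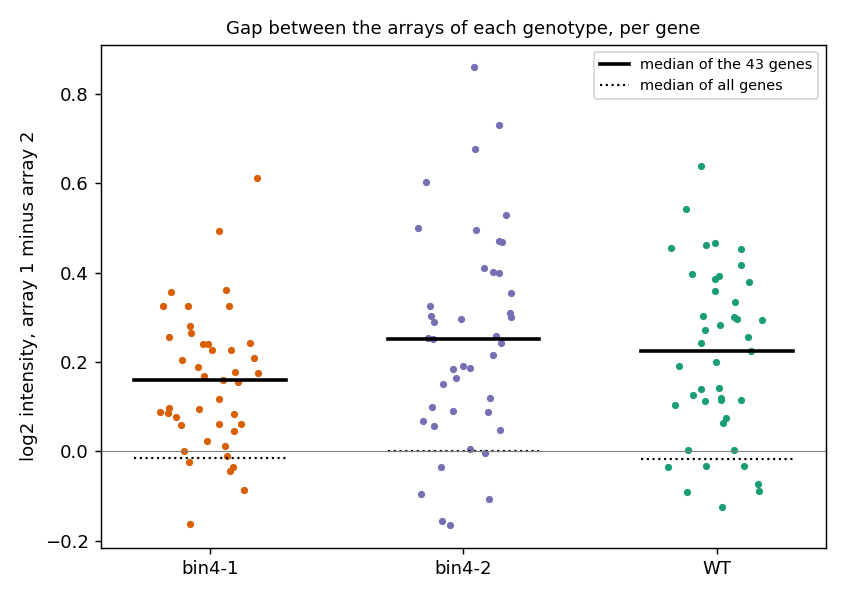
Log2 intensity on array 1 minus array 2 (y axis) for each of the 43 genes in bin4-1, bin4-2 and WT; solid bars are medians of the 43 genes and dotted bars medians of all 13355 genes. Most points lie above 0, with solid bars at 0.16, 0.25 and 0.22 and dotted bars near 0.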

How the data were processed

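Per the submitters' processing notes, the authors computed the deposited intensity values with RMA, which corrects background, equalises arrays and summarises probes. No version or setting of RMA was given in the sources used here. These intensities are linear, so log2 was taken first. Of 22810 probe sets, 64 controls were left out. In the platform annotation 13513 probe sets have 1 gene, 503 have several and 8730 have no gene listed. RefSeq (TAIR10.1) names were matched by gene identifier for 13436, and 77, the mitochondrial genes among them, kept the platform's name. For 147 genes with several probe sets the brightest was kept; each of the 43 genes described has 1. This left 13355 genes.

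limma 3.58.1 (R 4.3.3) was fitted to all genes and 6 arrays, with 3 group means, lmFit and eBayes (3 residual and 8.25 prior degrees of freedom), two-sided tests and Benjamini-Hochberg adjustment over all genes at 0.05. The fit relative to other plastid genes had infinite prior degrees of freedom, hence 1 SE for all genes. The fit was tested on simulated data with known changes, drawn independently for each gene. For the mean of both alleles it recovered 96% of 1.5-fold and 100% of 2-fold changes, with 11 calls among unchanged genes. A shift shared by the plastid genes of an array was not simulated, nor was the fit relative to other plastid genes. The outcome thus does not cover these. The number of arrays limits the precision.

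The genes, lists and tests were chosen with earlier results of these data known. By rule, array values are given for rbcL, psbA, psaA and, per complex, the 2 genes with the largest and the 2 with the smallest change; psbJ, psbI, petG and others are named for calls that differ between alleles or relative to plastid genes. Genome coordinates served to put the plastid genes in order. Sequences were not used here, and chromatin and sequencing data were not analysed here. Alternatives covered normalization, variance prior, a dim-gene filter, probe set choice, array weights, a replicate block and leaving out each array. Tables were made with pandas 2.3.3 and plots with matplotlib 3.10.9 in Python 3.11.15.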

Additional observations from a re-analysis of the deposited data

How the results depend on the processing

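Of the 36 genes lower in the mean of both alleles, 28 remained called in each of the alternatives in which they were measured, and so did 25 of 34 in bin4-1 and, psbJ counted, 23 of 32 in bin4-2. Of the 16 genes called relative to the other plastid genes, 11 did. With single arrays left out, the number of lower genes ranged from 26 to 36 in bin4-1, 24 to 36 in bin4-2 and 29 to 39 in the mean of both alleles, with 26 in bin4-1 without WT replicate 1 or bin4-1 replicate 2, 24 in bin4-2 without bin4-2 replicate 2, and 29 in the mean without WT replicate 1. The number higher in bin4-2, 1 (psbJ), was 0 after quantile normalization, with array weights and with the replicate block, and 0 to 1 when single arrays were left out. In the mean of both alleles it was 0 to 1, with psbJ called without WT replicate 1. The change of psbJ turned to -0.00 without WT replicate 2, and that of psbM to 0.04 without WT replicate 1; the cause was not tested. Over single arrays left out, psbJ ranged from -0.0019 to 0.4507 and psbM from -0.3612 to 0.0365. For bin4-2 against bin4-1 the count was 1 higher (psbC) with an intensity trend. Relative to the other plastid genes, 3 genes were higher, against 7 after quantile normalization, 5 with an intensity trend, 5 with the replicate block and 1 to 4 without single arrays; 10 to 15 were lower without single arrays. With mitochondria-encoded genes as the reference 42 were lower, against 43.5% of all genes, and 0 higher, with a median of -0.78. The filter at a mean log2 of 5 kept 37 of the 43 genes, of which 32 fell in the mean of both alleles. Whether the title suffix pairs the arrays is not settled. The gaps between array 1 and array 2 were correlated across genes for each pair of genotypes. Over all genes the correlation was -0.00 for bin4-1 and WT, 0.08 for bin4-2 and WT and -0.04 for bin4-2 and bin4-1. Over the 43 genes it was 0.13, 0.30 and 0.34. What lies behind the higher values was not tested. As a replicate block the suffix gave 37 lower genes in bin4-1, 34 in bin4-2 and 38 in the mean of both alleles. Apart from the mitochondria-encoded reference, the share of all genes called in each alternative is not given here. The counts in this section thus describe how stable the calls were. They do not compare the 43 genes with all genes. Dim probe sets such as ndhF are limited by background. The sizes of the changes of atpI, ndhH, petD, petG and psbT, which also had a mean log2 under 5, may be limited too.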
